A study of Mus musculus with 37 samples.

Results

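Extraembryonic ectoderm (EXE) of the mouse embryo at embryonic day 6.5 was compared between maternal Bap1 knockouts and controls in the 3 EXE libraries of a series of 37. The libraries were chosen by their sample titles and the matching columns of the table for day 6.5, with 1 control library and 2 maternal knockout libraries. Control embryos came from oocytes of Bap1 flox/flox females fertilised by PWK sperm. Knockout embryos came from oocytes of Bap1 flox/flox females that also carried Gdf9-iCre, fertilised by PWK sperm as well. Gdf9-iCre is a Cre recombinase driven by the promoter of Gdf9, a gene of growing oocytes, so the deletion was made in the mother's germ cells and both groups received a PWK genome from the father. Epiblast (EPI) and visceral endoderm (VE) of the same genotypes, with 2 control and 2 knockout libraries each, served for comparison. The labels do not say whether the replicates were separate embryos or pools, so the spread between them may be partly technical. With 1 control library no test was possible, and no p-value is given.

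EXE is the trophoblast tissue that lies between the epiblast and the ectoplacental cone. It holds the trophoblast stem cells, which are kept by transcription factors such as ELF5, EOMES, CDX2 and ESRRB, and it sends BMP4 to the neighbouring epiblast. BAP1 is the catalytic subunit of the Polycomb repressive deubiquitinase complex, which takes ubiquitin off histone H2A that Polycomb repressive complex PRC1 has put on. Genes under noncanonical imprinting, which starts from histone methylation laid down by Polycomb in the oocyte, keep their expression from the paternal allele in extraembryonic tissues.

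Values were deposited as FPKM, fragment counts scaled by gene length and library total. Differences below are taken between log2(FPKM + 1) values, so that a change of a low gene comes out smaller than it is. The mean of the control value and the knockout mean was at least 1 FPKM for 11100 of 55401 genes, and these were kept. A gene was counted as higher or lower where both knockout libraries differed from the control by at least 2-fold on that scale in the same direction. Both differences of a gene share the 1 control library, so a value of that library that stands off moves both. In bulk tissue, fewer cells of a type and less RNA per cell cannot be told apart.

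The label of the tissue matched its defining marker. Elf5, at chromosome 2 positions 103411688 to 103450989, had 135 FPKM in the control library, 151 in knockout replicate 1 and 184 in knockout replicate 2. In the 8 EPI and VE libraries it was between 0 and 0.381 FPKM. Bap1 had 21.8 FPKM in the control and 24.0 and 23.1 in the knockouts, a knockout mean of 23.6 ± 0.615 (SD, n = 2). The 3 libraries listed between 10616 and 11166 genes at 1 FPKM or more. The 4 Y-linked genes of the sex check summed to 25.9 FPKM in the control, 0 in knockout replicate 1 and 39.9 in knockout replicate 2. Ribosomal protein genes took 18.6% of the summed FPKM in the control, 17.0% in knockout replicate 1 and 13.4% in knockout replicate 2.

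Of the genes kept, 79 (0.712%) were at least 2-fold higher in both knockout libraries and 115 (1.04%) were at least 2-fold lower in both. With the 3 libraries quantile-normalised the split was 111 higher and 98 lower, and with values scaled to a common sum (TPM) it was 118 higher and 135 lower. With at least 1 FPKM asked of 2 libraries it was 81 higher and 66 lower, so which direction held more genes depended on the filter and the scaling. Of the 115 lower genes, 54 had a knockout mean under 1 FPKM and were kept through the control value, and 27 of the 79 higher genes were kept through the knockouts with a control under 1 FPKM. Among all genes kept, 5 (0.0450%) passed the limit in opposite directions in the knockout libraries. Taken alone, knockout replicate 1 passed the limit for 497 genes (4.48%), with 201 (1.81%) higher and 296 (2.67%) lower than the control. Replicate 2 passed it for 1104 genes (9.95%), with 383 (3.45%) higher and 721 (6.50%) lower. The knockout libraries were themselves at least 2-fold apart for 809 genes (7.29%). Knockout replicate 1 was thus closer to the control, with a median absolute difference of 0.22, than to knockout replicate 2, with 0.36. The edge of the limit is shown by Tbp, at 9.32, 19.7 and 32.5 FPKM in the control and the knockouts and just inside on the higher side, and by Batf3, at 59.6, 29.4 and 20.8 FPKM and just outside on the lower side.

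**Figure D1:**
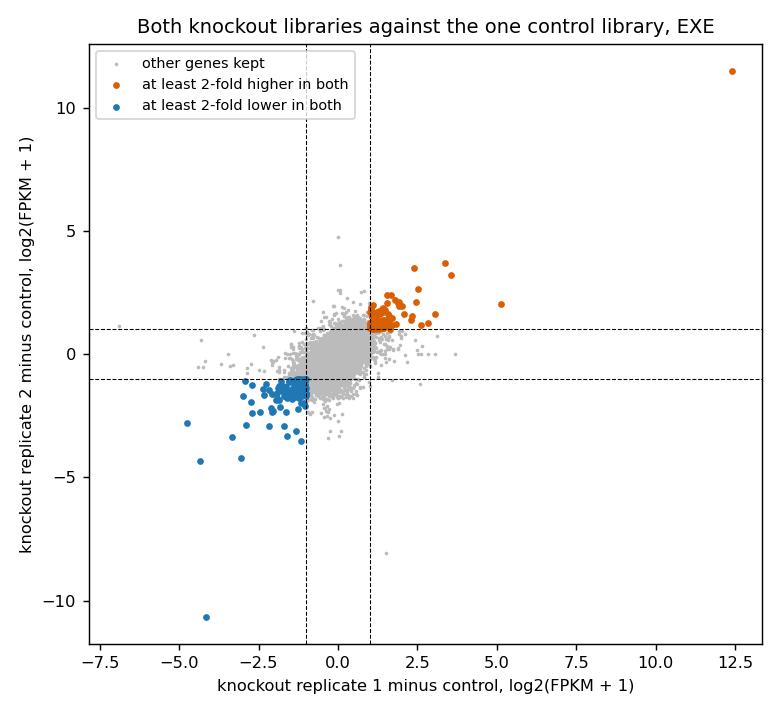
Difference of knockout replicate 1 from the control (horizontal axis) and of knockout replicate 2 from the same control (vertical axis), on log2(FPKM + 1), 1 point for each of the 11100 genes kept. Dashed lines mark a 2-fold difference, and the coloured points are the 79 genes higher and the 115 genes lower in both; both axes share the control library. The point at the top right is the pseudogene model Gm29216, listed at 0 in the control and at 5409 and 2846 FPKM in the knockouts.

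How far 1 control library can carry such counts was read from the lineages with 2. In EPI, both knockout libraries were at least 2-fold above control replicate 1 for 129 genes (1.09%) and below it for 59 (0.499%). Against EPI control replicate 2 the counts were 219 (1.85%) and 42 (0.355%). Against each of both EPI controls, 24 genes (0.203%) were higher and 18 (0.152%) lower. In VE, 224 genes (2.04%) were above control replicate 1 and 30 (0.273%) below it. Against VE control replicate 2 the counts were 163 (1.49%) and 109 (0.994%), and against each of both controls 20 (0.182%) and 7 (0.0638%) were left. Against single controls, the shares in these lineages were between 1.09% and 2.04% for higher genes and between 0.273% and 0.994% for lower genes. The EXE share was below that range for higher genes and just above it for lower genes.

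The genes called in EXE also differed between the controls of the epiblast. Of the 79 genes higher in knockout EXE, 67 were measured in EPI, and 49 of them were lower in EPI control replicate 1 than in EPI control replicate 2, with a median difference of -0.53 between the controls against 0.10 over all genes. Of the 115 lower genes, 91 were measured in EPI, and 71 were higher in EPI control replicate 1, with a median of 0.56. The median difference of the EPI knockouts from their controls was 0.10 for the first set and 0.05 for the second, beside 0.07 over all genes. The EPI controls were at least 2-fold apart for 16.3% of genes and the EPI knockouts for 29.7%, and in VE these shares were 14.3% and 7.06%. In each of the 3 lineages Y-linked transcripts were present in the control numbered 1 and the knockout numbered 2 and at 0 in the other libraries, so libraries with the same number may come from the same embryos or litters, which the labels do not say. The EXE control and EPI control replicate 1 may thus not be independent. In VE the medians between control replicates were -0.28 and -0.01, beside -0.03 over all genes. The part that a difference between controls has in the EXE counts was not tested.

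The named genes are the 15 in each direction with the largest difference in the less changed knockout library. Among the higher genes, Fignl1, an AAA ATPase of homologous recombination (chromosome 11, 11787431 to 11808962), had 2.60 FPKM in the control, 17.8 in knockout replicate 1 and 40.1 in replicate 2. Tjap1, a protein associated with tight junctions, had 1.91, 10.7 and 10.4 FPKM. Tnfaip1, an adaptor of a cullin ubiquitin ligase, had 1.93, 10.0 and 11.6 FPKM. In these genes the knockout mean was 11.1-fold, 5.54-fold and 5.60-fold the control value, and each knockout library lay far above the control. Across the EPI and VE libraries Tjap1 was between 6.45 and 20.6 FPKM and Tnfaip1 between 7.87 and 16.5, all above the EXE control. Fignl1 was between 0.382 and 39.5 FPKM there, on both sides of the EXE control.

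Ppp2r2a, a regulatory subunit of protein phosphatase 2A, had 10.8 FPKM in the control against 46.7 ± 9.12 (SD, n = 2) in the knockouts. Pcid2, a factor of mRNA export, had 4.91, 16.1 and 30.2 FPKM in the control and the knockouts. Vezf1, a zinc finger transcription factor, had 2.05, 8.99 and 7.52 FPKM. For Pcid2 the knockout libraries were further from each other than for Vezf1, and for both they were above the control. In EPI and VE, Ppp2r2a was between 14.7 and 66.5 FPKM and Pcid2 between 9.15 and 32.3, above the EXE control in every library. Vezf1 was between 0.670 and 4.99 FPKM there, on both sides of the EXE control.

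P4hb, a protein disulfide isomerase of the endoplasmic reticulum that folds secreted proteins (chromosome 11, 120560298 to 120573253), had 53.9 FPKM in the control and 152 and 187 in the knockouts, a 3.15-fold knockout mean of 169.8 ± 24.7 (SD, n = 2). Srp14, a protein of the signal recognition particle that brings nascent chains to the membrane of that organelle (chromosome 2, 118475850 to 118479711), had 112 FPKM in the control and 308 and 292 in the knockouts. Alg11, a mannosyltransferase of the glycan precursor for N-glycosylation, had 1.94, 6.80 and 6.64 FPKM. Slc39a7, a zinc transporter of the early secretory pathway that shares 74.5% of its words with other genes, had 18.9, 59.3 and 51.0 FPKM. In EPI and VE the Srp14 values went the other way, with 259 and 209 FPKM in the EPI controls, 173 and 179 in the EPI knockouts, 272 and 297 in the VE controls and 215 and 83.7 in the VE knockouts. The EXE control library, at 112 FPKM, was thus below the EPI and VE controls, and the EXE knockouts were close to those. In the EPI and VE libraries P4hb was between 134 and 384 FPKM, Slc39a7 between 44.8 and 121 and Alg11 between 3.85 and 7.60. The EXE control was below each of these values. The part that the single control library has in the higher genes was not tested.

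The remaining higher genes include Far1, a reductase of ether lipid synthesis, at 4.30, 13.1 and 18.5 FPKM, and Wdr89 at 1.93, 13.5 and 6.69 FPKM. Zfp979, a zinc finger gene with 27.1% of its 50-base exonic words found in other genes, had 6.85, 19.8 and 24.4 FPKM. For 2 of the higher genes the gain had a matching loss in an overlapping model. The Nnt model ENSMUSG00000116207.1, for the mitochondrial transhydrogenase, was listed at 0 in the control and at 9.33 and 12.0 FPKM in the knockouts, while the second Nnt model over the same exons had 15.5, 7.16 and 4.36 FPKM. Brms1, a subunit of histone deacetylase complexes, had 10.2, 63.1 and 68.5 FPKM, and an overlapping protein coding model on the same strand (Gm50388) had 19.3, 0.985 and 0.964 FPKM. Pooled with what overlaps them, Nnt was at -0.41 and -0.60 and Brms1 at 0.39 and 0.50 against the control, inside the 2-fold limit.

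**Figure D2:**
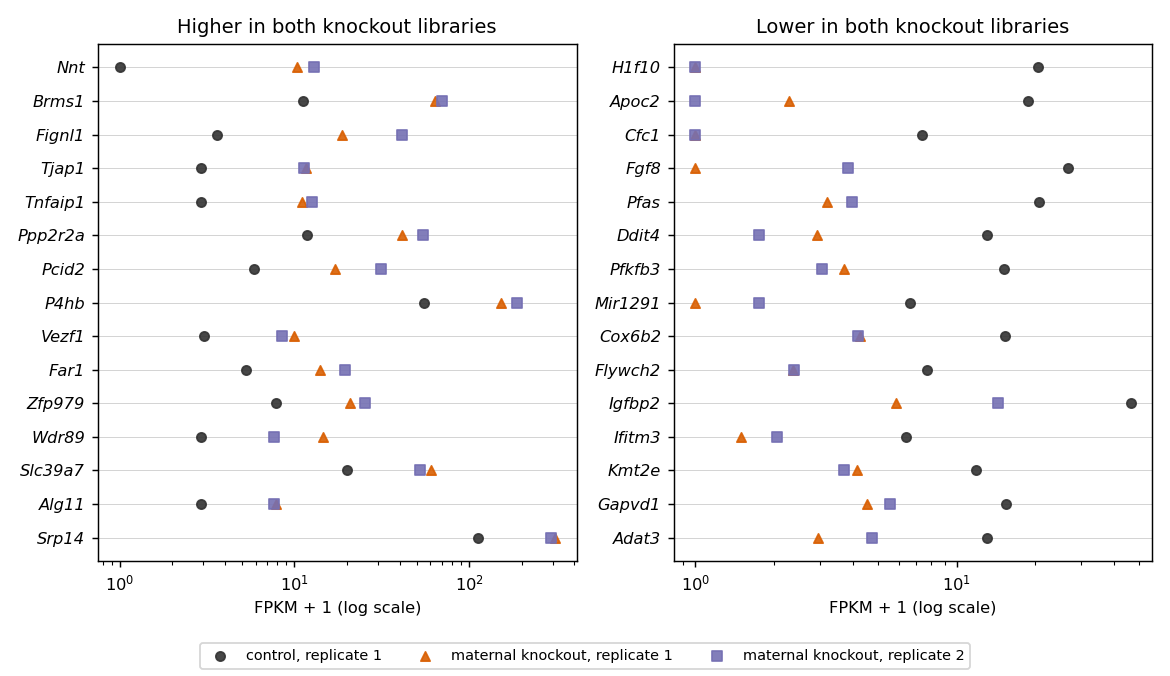
FPKM + 1 on a log axis for the 15 named genes higher (left) and the 15 lower (right) in both knockout libraries; circles are the control library, triangles knockout replicate 1 and squares knockout replicate 2. Each gene's knockout points lie on 1 side of its control point because the genes were chosen so, and a point at 1 stands for a value listed at 0, as for H1f10 and Cfc1 in both knockouts.

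Among the genes lower in the knockouts, Fgf8, a fibroblast growth factor of the primitive streak (chromosome 19, 45736798 to 45742915), had 25.7 FPKM in the control, was listed at 0 in knockout replicate 1 and had 2.84 FPKM in replicate 2. Cfc1, a co-receptor for Nodal, had 6.34 FPKM in the control and was listed at 0 in both knockouts. Nodal, the ligand itself, had 4.13, 0.0750 and 1.23 FPKM, and Fst, which encodes the activin antagonist follistatin, had 2.86, 0 and 0.0577 FPKM. These transcripts are ones that the neighbouring lineages also held: Fgf8 was between 6.74 and 61.1 FPKM in the 4 EPI libraries, Nodal between 11.9 and 33.3, and Cfc1 between 63.2 and 86.6 FPKM in the 4 VE libraries.

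Genes with high levels in VE were also among the lower genes. Apoc2, an apolipoprotein that activates lipoprotein lipase and shares 78.3% of its words with other genes, had 17.7, 1.28 and 0 FPKM, and Apoa1 had 4.78, 0.804 and 0.908 FPKM. Apom had 4.93, 0.401 and 0.158 FPKM, and Rbp4, the retinol carrier of plasma, had 4.87, 1.64 and 1.35 FPKM. In the VE libraries these 4 genes were between 1314 and 11996 FPKM. Of the 18 VE markers listed, 5 were kept, and Apoa1, Apom and Rbp4 were the 3 at least 2-fold lower in both knockouts, beside 1.04% of all genes. Apoa1 and Apom were kept through the control value, so this count is partly fixed by the filter and nothing is read from it.

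Summed over the whole list of 18 VE markers, the EXE control had 196 FPKM and the knockouts 147 and 280.3, of which Cldn6, a claudin that EXE also expresses, made up 169.8, 138 and 273. Summed over the 17 VE markers at least 10-fold higher in another lineage, the EXE control had 26.6 FPKM and the knockouts 8.51 and 7.03. The VE libraries had between 11501 and 14516 FPKM for the same genes. The EPI controls had 21.1 and 20.5 FPKM for them and the EPI knockouts 10.5 and 6.85. Foxa2 and Hnf4a of this list were at 0 in the EXE control, while Ttr had 1.59 FPKM there and 0.102 and 0.0902 in the knockouts. The whole list of 13 epiblast markers summed to 889.7, 729.6 and 926 FPKM, with Utf1 at 457, 394 and 482. Epiblast markers at least 10-fold higher in another lineage, 8 genes, summed to 43.4 FPKM in the EXE control, 3.54 in knockout replicate 1 and 35.8 in replicate 2. Pou5f1 among them had 20.5, 0.127 and 13.8 FPKM, and Tdgf1 had 15.4, 0.284 and 11.4 FPKM. Markers of decidua summed to 1.31, 0.893 and 0.666 FPKM over 13 genes, none of which was kept, and markers of blood, immune and endothelial cells to 4.98, 7.60 and 4.73 FPKM over 17 genes.

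**Figure D3:**
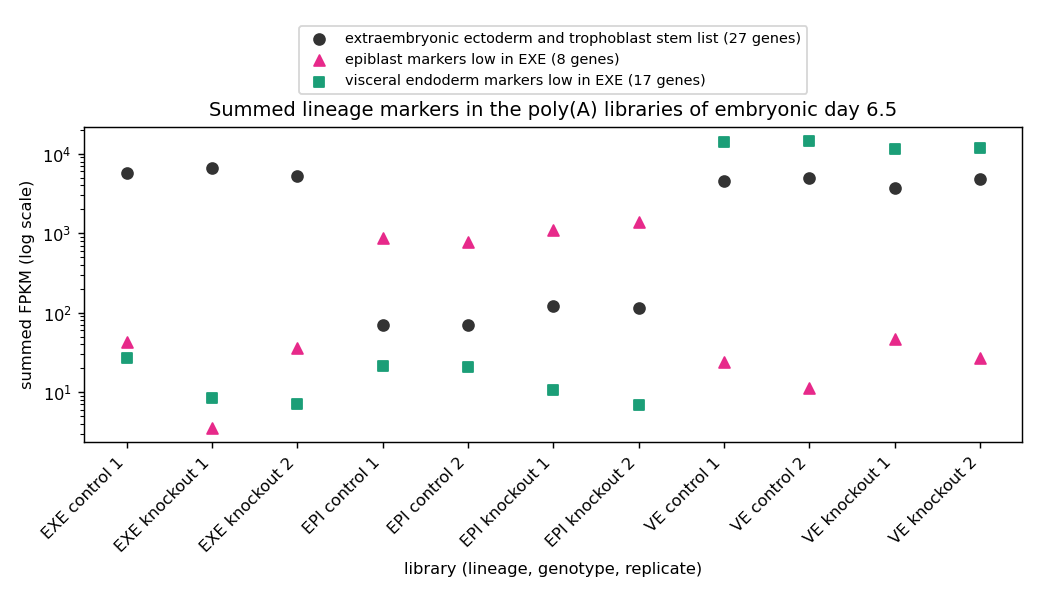
Summed FPKM (log axis) of the EXE and trophoblast stem list and of the epiblast and VE markers that are low in EXE, in each of the 11 libraries of day 6.5. The VE markers are at 26.6 FPKM in the EXE control and at 8.51 and 7.03 in the EXE knockouts; the epiblast markers are at 43.4, 3.54 and 35.8. The EXE list is high in VE as well through shared genes such as Rhox5.

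Of the 115 lower genes, 26 (22.6%) had an EPI or VE control mean at least 5-fold above their EXE level, against 2 of the 79 higher genes (2.53%) and 3.29% of all genes kept. Without genes of that kind, 77 higher and 89 lower genes were left. Of the 115, 54 had a knockout mean under 1 FPKM and were kept through the control value. A mean of at least 5 FPKM in EXE was reached by 40.0% of the lower genes, beside 65.2% of all genes kept. The share of 22.6% is thus partly set by how the genes were chosen, and nothing is read from it. The part that transcripts of neighbouring lineages have in the lower genes was not tested.

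Ddit4, an inhibitor of mTORC1 that hypoxia and other stresses induce (chromosome 10, 59949669 to 59951834), had 12.1 FPKM in the control and 1.91 and 0.744 in the knockouts. Pfkfb3, which makes the activator of phosphofructokinase, had 14.1 FPKM in the control and 2.38 ± 0.453 (SD, n = 2) in the knockouts. Pfas, an enzyme of purine synthesis, had 19.7, 2.18 and 2.98 FPKM, and Cox6b2, a subunit isoform of cytochrome c oxidase, had 14.3, 3.25 and 3.18 FPKM. In these 4 genes both knockout libraries were far below the control and close to each other beside that distance. In the EPI libraries Pfas was between 21.6 and 32.7 FPKM and Cox6b2 between 15.6 and 35.4. Ddit4 was between 2.40 and 11.5 FPKM there and Pfkfb3 between 3.94 and 5.44, below the EXE control.

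Igfbp2, a binding protein of insulin-like growth factors, had 45.3, 4.85 and 13.4 FPKM. It was between 375 and 548 FPKM in EPI. Ifitm3, an interferon-induced membrane protein, had 5.39, 0.496 and 1.06 FPKM, and was between 35.3 and 50.3 FPKM in EPI. H1f10, a linker histone, had 19.4 FPKM in the control and was listed at 0 in both EXE knockouts, although it had between 7.19 and 25.6 FPKM in the EPI and VE libraries of both genotypes. Flywch2 had 6.71, 1.36 and 1.38 FPKM, and Gapvd1, an exchange factor for endosomal Rab GTPases, had 14.4, 3.54 and 4.57 FPKM. Mir1291, a microRNA precursor model of which 63.2% of the words are shared with other genes, had 5.65, 0 and 0.747 FPKM.

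Kmt2e, a SET domain protein of chromatin, had 10.9, 3.17 and 2.71 FPKM, but pooled with the gene on the opposite strand that overlaps it, Srpk2, it was at -0.65 and -0.67. Adat3, a subunit of a tRNA adenosine deaminase, had 12.1, 1.94 and 3.76 FPKM, and 91.7% of its words are shared with other genes. Scamp4, which overlaps it on the same strand, had 50.9, 48.3 and 80.6 FPKM. Pooled, Adat3 was at -0.11 and 0.51. Whether the counting used the strand is not given in the sources used here. Of the 39 called genes named here, 5 did not pass the limit after pooling, namely Nnt, Brms1, Kmt2e, Adat3 and Ankrd37.

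The list of hypoxia response and glycolysis held 28 genes, and 28 were kept. In both knockouts 18 of them were lower by any amount and 1 was higher, beside 33.6% lower and 33.2% higher over all genes, and 1 was past the 2-fold limit. The count of lower genes was between 15 and 18 under the other scalings. Ankrd37, an ankyrin repeat protein induced by hypoxia (chromosome 8, 45996902 to 46005707), was that gene, with 115 FPKM in the control and 42.3 and 35.4 in the knockouts. It overlaps Ufsp2 on the opposite strand, at 64.1, 56.9 and 82.8 FPKM, and pooled with its overlapping genes it was at -0.54 and -0.13. Slc2a3, a glucose transporter, had 98.4, 47.0 and 58.2 FPKM, and Egln3, an oxygen-sensing prolyl hydroxylase, had 7.32, 1.54 and 3.35 FPKM. Adm, the peptide hormone adrenomedullin, had 17.0, 8.73 and 5.97 FPKM. Tpi1, triose phosphate isomerase, was the gene higher in both, at 723, 1083 and 1344 FPKM. The large glycolytic genes were split between the knockouts, with Gapdh at 2173, 1519 and 2239 FPKM and Pkm at 1229, 1057 and 1557 FPKM.

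The promoters of 3 lower genes that hypoxia is known to induce, Ankrd37, Ddit4 and Pfkfb3, are shown because these genes were lower together. Genes and motif were chosen after their values were seen. Angptl4, which hypoxia is also known to induce, was past the limit on the higher side, at 1.69, 4.76 and 4.46 FPKM. Each sequence is the 250 bases before the gene's start in RefSeq, build GRCm38.p6, minus strand, and capitals mark the core of the hypoxia response element, ACGTG or GCGTG on either strand, where neighbouring matches can share bases. They are chr8:45999851-46000100 for Ankrd37, chr10:59951771-59952020 for Ddit4 and chr2:11553930-11554179 for Pfkfb3. Pfkfb3 has 2 such windows, of which the first is shown. The Ankrd37 window lies inside the span given above for its gene model, and the Ddit4 and Pfkfb3 windows overlap their gene models in part.
Ankrd37: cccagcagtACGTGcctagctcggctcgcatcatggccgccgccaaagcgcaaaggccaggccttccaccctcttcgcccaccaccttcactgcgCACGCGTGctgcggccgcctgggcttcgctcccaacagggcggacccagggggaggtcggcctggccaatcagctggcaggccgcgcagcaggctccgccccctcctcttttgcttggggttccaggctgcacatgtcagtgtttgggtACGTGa
Ddit4: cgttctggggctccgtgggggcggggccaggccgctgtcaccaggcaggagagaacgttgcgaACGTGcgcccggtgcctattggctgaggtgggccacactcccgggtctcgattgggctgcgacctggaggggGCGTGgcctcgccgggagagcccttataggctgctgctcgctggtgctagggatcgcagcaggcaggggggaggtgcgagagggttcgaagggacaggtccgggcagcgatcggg
Pfkfb3: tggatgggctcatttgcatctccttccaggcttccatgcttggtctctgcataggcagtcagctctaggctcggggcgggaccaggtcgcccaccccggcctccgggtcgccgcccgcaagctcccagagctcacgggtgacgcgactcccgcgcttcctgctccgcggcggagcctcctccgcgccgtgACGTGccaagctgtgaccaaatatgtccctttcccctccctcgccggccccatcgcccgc
The windows held 4, 2 and 1 matches. The motif is short and common: 12679 of 32851 promoter windows of that length (38.6%) held it, as did 44 of 84 windows of the lower genes (52.4%) and 28 of 52 windows of the higher genes (53.8%). A match is a stretch of letters and says nothing on binding of a factor.

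No gene of the tissue's identity list was past the 2-fold limit in both knockouts. Of 27 genes of the EXE and trophoblast stem list, 26 were kept and 0 passed the 2-fold limit in either direction. That count is near the 0.712% higher and 1.04% lower over all genes, so nothing is read from it. By any amount, 7 were higher and 12 lower in both knockouts, with medians of -0.02 and -0.17. Eomes had 89.2, 79.9 and 87.0 FPKM, Tfap2c had 87.9, 83.6 and 76.0, and Bmp4, the signal to the epiblast, had 95.9, 79.3 and 129.7 FPKM. Cdx2 had 6.01 and 7.98 FPKM in the control and knockout replicate 1 and 18.0 in replicate 2, and Sox2 had 12.3, 13.3 and 5.30 FPKM, so for these genes replicate 2 stood apart. Rhox9, a homeobox gene of the X chromosome, had 16.4, 9.07 and 9.46 FPKM. Of 30 genes of the ectoplacental cone and differentiated trophoblast, 11 were kept and 0 passed the limit, near the 0.712% and 1.04% of all genes. Of the 30, 14, among them Tpbpa and Prl3d1, were listed at 0 in the 3 libraries.

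Noncanonical imprinted genes were found on both sides of the control. Of 17 genes, 13 were kept, 3 were higher and 4 lower in both knockouts by any amount, near or below the 33.2% and 33.6% of all genes, and the medians were 0.20 and -0.09. Platr20, a noncoding RNA, was the 1 past the limit, beside 0.712% of all genes, with 1.05 FPKM in the control and 3.17 and 3.96 in the knockouts. With the libraries centred on their medians it did not pass. Gm32885 had 155, 205 and 243 FPKM and Slc38a4, an amino acid transporter, had 39.3, 45.2 and 63.4 FPKM, above the control in both. Sfmbt2, a Polycomb protein gene, had 32.1, 41.0 and 31.2 FPKM, Jade1 had 8.87, 20.5 and 7.73, Gab1 had 21.4, 28.0 and 16.5 and Smoc1 had 4.94, 6.84 and 4.72. For these 4 genes replicate 1 was above the control and replicate 2 below it. Tle3 had 15.5, 8.11 and 3.68 FPKM and was lower in both.

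**Figure D4:**
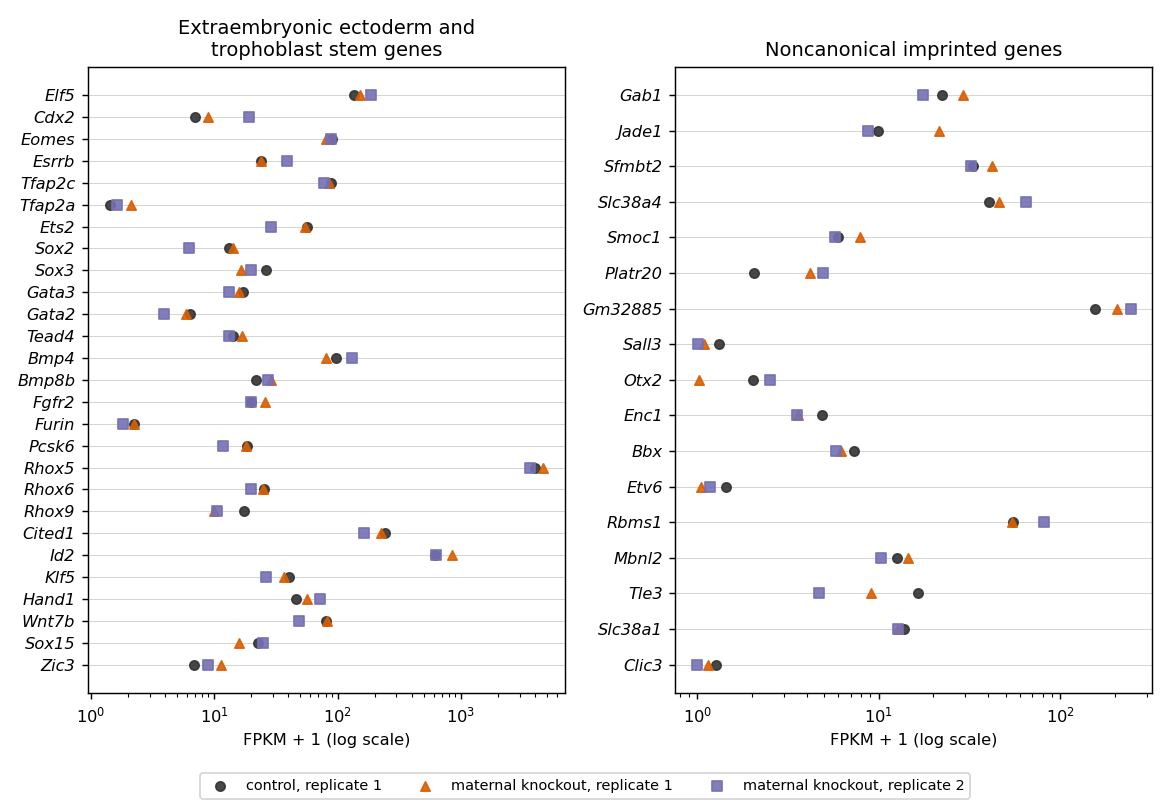
FPKM + 1 on a log axis of the 27 genes of the EXE and trophoblast stem list (left) and the 17 noncanonical imprinted genes (right); circles are the control library, triangles knockout replicate 1 and squares knockout replicate 2. Elf5 is at 135, 151 and 184 FPKM, and Platr20 is the gene past the 2-fold limit in both knockouts.

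Canonical imprinted genes, 36 of 60 kept, had 0 past the limit, beside 0.712% higher and 1.04% lower over all genes, and 11 higher and 10 lower by any amount, near the 33.2% and 33.6% of all genes, with medians of 0.01 and 0.02; under TPM scaling and quantile normalization 1 was past the limit on the higher side. In knockout replicate 2, H19 had 239 FPKM against 723 in the control and 696 in replicate 1. Meg3 had 55.3, 58.5 and 25.5 FPKM and Grb10, a growth inhibitor, had 33.3, 31.4 and 13.6 FPKM, so these differences also belong to replicate 2. Mest had 32.4, 45.1 and 73.3 FPKM. The expression of imprinted genes was measured as the sum of both parental alleles.

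Of 10 kept genes of the deubiquitinase complex and its partners, 21 of PRC1 and 11 of PRC2, 0 were past the limit in both knockouts in either direction, a count near the 0.712% and 1.04% of all genes. Hcfc1, a partner of BAP1, had 14.7, 39.2 and 10.4 FPKM, and Cbx2, a chromobox subunit of PRC1, had 5.70, 0.323 and 3.15 FPKM. Eed, a core subunit of PRC2, had 93.2, 128 and 153 FPKM, and Ezh2, its methyltransferase, had 47.5, 48.4 and 48.7 FPKM. In the list of BMP and Nodal signalling, 24 of 30 genes were kept, and Nodal and Fst were the 2 past the limit, beside 1.04% of all genes; both had a knockout mean under 1 FPKM and were kept through the control value. Id3, a target of BMP signalling, had 29.7, 7.41 and 20.0 FPKM, and Id2 had 619, 842 and 630.2. In FGF signalling 17 of 26 genes were kept and 1 passed, Fgf8, beside 1.04% of all genes.

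Of 25 kept cell cycle genes, 13 were higher and 5 lower in both knockouts, beside 33.2% and 33.6% of all genes, with medians of 0.07 and 0.38. Ccnb1, the mitotic cyclin, had 179, 139 and 514 FPKM, and Ccne2 had 10.0, 11.6 and 22.4 FPKM, with the larger differences in replicate 2. Ccnd2, a cyclin of the G1 phase, was the 1 gene past the limit, beside 1.04% of all genes, at 2.05, 0 and 0.0259 FPKM, and was kept through the control value. Ier3, an immediate early gene, had 27.7, 13.3 and 8.73 FPKM and was the 1 of 16 kept genes of its list past the limit, beside 1.04% of all genes, which it did not pass under TPM scaling. Ddit4 was likewise the 1 of 16 past the limit in the integrated stress response, beside 1.04% of all genes. Asns of that list, asparagine synthetase, had 159, 199.6 and 308 FPKM. In the lists of p53 targets, cholesterol synthesis, DNA methylation and germline genes 0 of 17, 23, 11 and 9 kept genes passed. These counts are near the 0.712% higher and 1.04% lower over all genes. Genes that Bap1 knockout oocytes lose, 5 of 12 kept, had 0 past the limit, also near those shares. Cdc5l among them had 58.7, 58.5 and 71.2 FPKM.

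**Figure D5:**
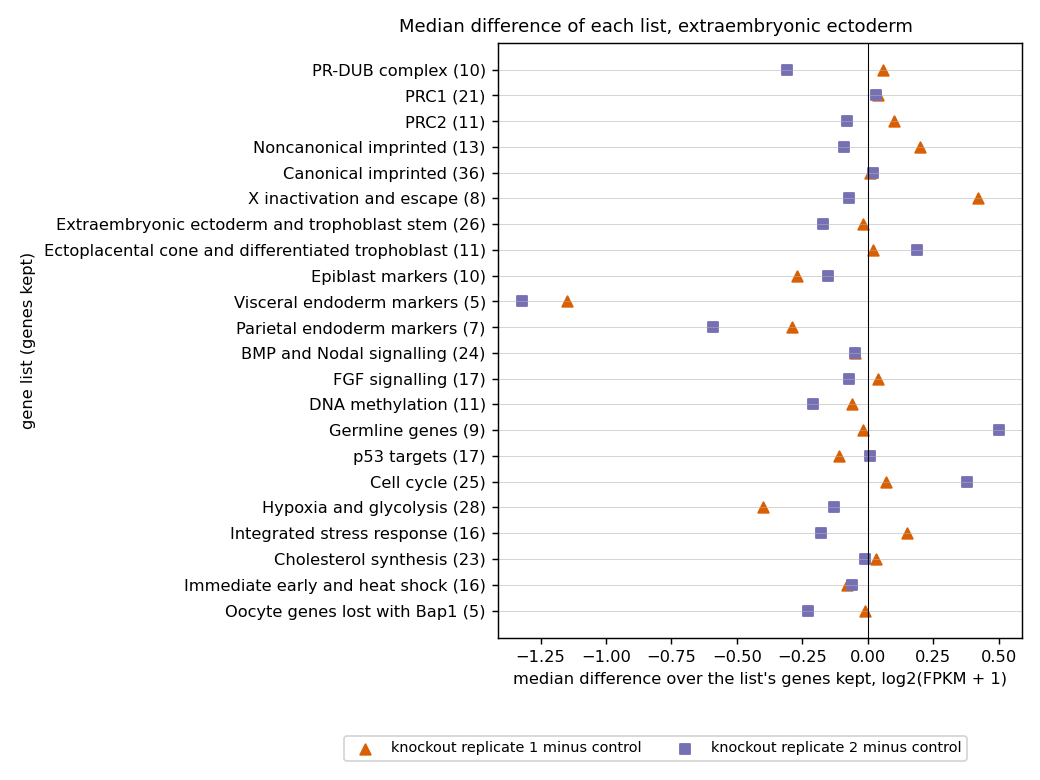
Median difference from the control over the kept genes of each list with at least 5 of them, on log2(FPKM + 1), for knockout replicate 1 (triangles) and replicate 2 (squares); the number of genes is given beside each list. The EXE list is at -0.02 and -0.17 and the hypoxia and glycolysis list at -0.40 and -0.13. Both knockouts are set against the same control, and the VE marker point rests on 5 of 18 genes, 2 of them kept through the control value.

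The genes called in EXE were read against the same limit in the other lineages. Of the higher genes, 0 of 67 in EPI and 0 of 64 in VE were at least 2-fold higher in both knockouts than in each of both controls, counts that shares of 0.203% and 0.182% of all genes there also give. Of the lower genes, 4 of 91 in EPI and 1 of 84 in VE were lower, beside 0.152% and 0.0638%, and 1 in each lineage was higher. The 4 in EPI were Apoa1, Apom, Spink1 and Mir678. Of these, Apoa1, Apom and Spink1 were between 1903 and 7110.5 FPKM in the VE libraries. Against VE control replicate 1 alone, 5 of 64 higher genes were higher, beside 2.04%, and 2 of 84 lower genes were lower, beside 0.273%. Against VE control replicate 2 alone these counts were 3 and 5, beside 1.49% and 0.994%. Past the limit in the opposite direction were 0 and 1 against VE control replicate 1, and 1 and 5 against VE control replicate 2. Against EPI control replicate 1 alone, 2 of 67 and 4 of 91 kept their direction, beside 1.09% and 0.499%, with 1 opposite in each. Against EPI control replicate 2 alone the counts were 0 and 4, beside 1.85% and 0.355%, with 2 and 4 opposite. X-linked genes, 388 in number, had median differences of 0.08 and 0.01, beside 0.01 and -0.04 for autosomal genes. Xist, the RNA that coats the inactive X chromosome, had 0.549, 2.55 and 0.166 FPKM and did not pass the filter. Tsix, the antisense gene that overlaps it, was kept, at 0.725, 9.90 and 1.15 FPKM. In the day 6.5 libraries with Y-linked transcripts at 0, Tsix was between 5.33 and 21.2 FPKM. In those with Y-linked transcripts it was between 0.451 and 1.62 FPKM.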

How the data were processed

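The 3 EXE libraries and the 8 EPI and VE libraries beside them hold poly(A) RNA amplified with the SMART-Seq mRNA kit and tagged with Nextera XT, per the labels' protocols. The authors deposited FPKM, 1 column per library, and per the submitters' processing notes used Trim Galore 0.6.6, STAR 2.7.9, StringTie 2.1.7 and mm10; annotation, filters and use of strand are not given in the sources used here. In the deposited FPKM column of EPI control replicate 1, 1 value below 0 was set to 0. FPKM does not keep read numbers, so depth stays unknown and counting error is not given; the number of libraries limits the precision.

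Of 55401 genes, 55141 matched GENCODE M21 (GRCm38) by identifier, 54349 of them in version too. Values were compared as log2(FPKM + 1), with the filter and 2-fold limit given above and no test. Shared sequence is the share of 50-base words of a gene's exons that another annotated gene also contains. The members, the 27 gene lists and the rules were chosen with earlier results of these data known. Named genes are the 15 higher and 15 lower with the largest smaller difference, at least 5 FPKM in the control (lower) or in each knockout (higher), without predicted, clone-named and pseudogene models; Bap1 and Elf5; list members past the limit; and the noncanonical imprinted, X inactivation and EXE lists. Other genes named, including members of lists within the limit, were chosen after their values were seen. Alternatives were the pseudocount, filters, scalings, a 1.5-fold limit and each knockout library alone. Pooling of genes with overlapping exons, leaving out genes listed at 0, and leaving out genes at least 5-fold higher in EPI or VE controls were added after seeing the data. Promoter sequences were read from RefSeq. Python 3.11.15, numpy 2.4.6, pandas 2.3.3 and matplotlib 3.10.9 were used, and the scripts were tested on simulated data.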

Additional observations from a re-analysis of the deposited data

Results flagged for a closer look

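For 10 of the named genes every knockout library of another lineage lay on the opposite side of every control library there from the side seen in EXE. These were 11 of 74 pairs of a named gene and a lineage, and in 13 pairs the libraries lay on the same side as in EXE. Over all genes, both knockouts were above both controls for 14.5% in EPI and in VE, and below both for 9.23% and 9.35%, so the number of such genes is near what any genes give. The difference between lineages was not tested. Values are mean differences of the knockouts from the controls on log2(FPKM + 1).

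Among the genes higher in knockout EXE, Tjap1 was at 1.99 in EXE and at -0.08 in VE, and Slc39a7 was at 1.49 in EXE and at -0.23 in VE. Srp14 was at 1.41 in EXE, at -0.41 in EPI and at -1.08 in VE.

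Among the genes lower in knockout EXE, Fgf8 was at -3.77 in EXE and at 1.23 in VE. Fst was at -1.91 in EXE and at 1.78 in VE, where knockout replicate 1 had 52.8 FPKM. Gapvd1 was at -1.61 in EXE and at 1.74 in VE. H1f10, listed at 0 in both EXE knockouts, was at 0.27 in VE. In EPI, Nodal was at 0.90 against -1.73 in EXE, Pfas at 0.31 against -2.54, and Ifitm3 at 0.36 against -1.86.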

How the results depend on the processing

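With a pseudocount of 0.1 in place of 1, 173 genes were higher, 277 lower and 1589 apart between the knockout libraries, beside 79, 115 and 809. With a mean of at least 5 FPKM the counts were 42, 46 and 403, and where 2 of the libraries had to reach 1 FPKM, 81 genes were higher and 66 lower. At a 1.5-fold limit the counts were 333, 491 and 3049. With either knockout library left out, 201 to 383 genes were higher and 296 to 721 lower, and the median of the noncanonical imprinted list was -0.09 to 0.20, beside 0.15 for the mean of both; without a filter it was -0.05. TPM scaling, centring on medians, quantile normalization and no filter kept the higher count between 75 and 118 and the lower count between 98 and 156. With overlapping genes pooled, 63 genes were higher, of which 62 were among the 79, and 92 lower, of which 87 were among the 115; the mean differences of Nnt and Adat3 turned to -0.50 and 0.20. No paired analysis was possible because the control and knockout EXE libraries share 1 replicate number. Depth is unknown, so genes listed at 0 cannot be told from genes below detection; without them 73 genes were higher and 95 lower.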

Other observations

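Histone genes of the clusters, chosen by symbol after their values were seen, were mostly lower in the knockout EXE libraries. Of 31 kept, 28 were lower in both and 2 higher, beside 33.6% and 33.2% of all genes, with medians of -0.46 and -0.67 beside 0.02 and -0.04. Quantile normalization left 23 of 31 lower in both. Transcripts of these genes mostly lack a poly(A) tail, and 6 of the 31 had a mean of at least 5 FPKM. Of the 31, 6 had a knockout mean under 1 FPKM and were kept through the control value. Past the 2-fold limit were 4 of the 31, beside 1.04% of all genes. They were H2ac13 at 4.19, 1.51 and 0.752 FPKM in the control and the knockouts and H2bc11 at 9.05, 3.17 and 2.34. The others were H2bc12 at 5.49, 2.05 and 2.14, and H3c11 at 2.16, 0.216 and 0.338, which was kept through the control value. With the libraries centred on their medians 3 passed, and with quantile normalization 2.

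The largest differences in either direction belonged to neighbouring pseudogene models of chromosome 1. Gm29216 was listed at 0 in the EXE control and at 5409 and 2846 FPKM in the knockouts, and Gm28661 at 1600.3, 88.5 and 0 FPKM. In the EPI and VE libraries Gm29216 was between 410.4 and 11715 FPKM.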
